A study of Mus musculus with 6 samples.

Results

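The core and linker histone genes of the Hist1, Hist2, Hist3 and Hist4 clusters were examined in sorted CD4+ T cells. Members were all probe sets of the deposited array table whose annotated gene is, by its older symbol, a Hist1h, Hist2h, Hist3h or Hist4h gene. There were 58 such probe sets among 35556 rows, of which 23410 carried a gene symbol and were tested. Of the 58, 31 carried 1 gene symbol, each of a different gene, and 27 carried several symbols and were counted apart. No filter on level was applied, so every member entered the test. Current symbols are used here, such as H2ac4 for Hist1h2ab.

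The study set out to learn how Bcl6 expression relates to the follicular helper program of CD4+ T cells in living mice. All cells were CD4+ CD44+ T cells, which have met antigen, sorted from draining lymph nodes of male Bcl6_RFP reporter mice of 8 to 10 weeks after immunisation with KLH, a protein antigen, in the adjuvant CFA. The 3 groups, of 2 arrays each, were Cxcr5+Bcl6+ cells, Cxcr5+Bcl6- cells and, as the reference, Cxcr5-Bcl6- cells, sorted by the follicle-homing receptor Cxcr5 and by red fluorescence from the Bcl6 reporter. All groups came from immunised reporter mice, the sources used here do not say whether mice were pooled, and the series calls the arrays of a group biological replicates.

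Core histones H2A, H2B, H3 and H4 form the protein spool of the nucleosome, and linker histone H1 binds where DNA enters and leaves it. Most of their genes lie in clusters, are transcribed in S phase while DNA is copied, and give mRNAs that end in a stem-loop instead of a poly(A) tail. Dividing lymphocytes therefore carry much histone mRNA, and a few members are known mainly from testis.

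The arrays matched their sort labels. The Bcl6 transcript was at 11.45 and 11.55 (log2 signal) in Cxcr5+Bcl6+ cells, 10.55 and 10.56 in Cxcr5+Bcl6- cells, and 10.31 and 10.31 in Cxcr5-Bcl6- cells. For Cxcr5 the levels were 11.01 and 10.98, 9.98 and 9.91, and 7.61 and 7.34 in the same order of groups. All 10 measured CD4 T cell core genes lay above the 95th percentile of 1225 probe sets for smell receptors, genes known from olfactory neurons, which served as a yardstick for dim probe sets (7.48 log2). Of the histone probe sets, 49 of 58 had a mean level above that percentile, among them 22 of the 31 with 1 symbol. The dim probe sets themselves moved between groups: the smell receptors had a median change (log2) of 0.22 for Cxcr5+Bcl6+ against Cxcr5-Bcl6- cells, -0.07 for Cxcr5+Bcl6- against Cxcr5-Bcl6- cells and 0.30 for Cxcr5+Bcl6+ against Cxcr5+Bcl6- cells.

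Promoters of 5 members, the largest rise of each histone class in Cxcr5+Bcl6- against Cxcr5-Bcl6- cells that had a promoter entry, are shown so that the elements of the classes can be compared. The RefSeq promoter table (build GRCm38.p6) gives 250 bases before to 50 after the gene start, and 26 of the 31 singly named genes had an entry. Capitals mark 4 motifs searched on both strands, none of which overlap each other in the windows shown. CCAAT is bound by the factor NF-Y, and TATAAA is a form of the TATA box. The octamer bound by Oct1 is ATTTGCAT. The H1 box known from linker histone genes is AAACACA. The windows are H1f5 at chr13:21780576-21780875 (minus strand), H2ac4 at chr13:23750838-23751137 (plus strand), H2bc3 at chr13:23746484-23746783 (plus strand), H3c15 at chr3:96239078-96239377 (minus strand) and H4c6 at chr13:23551619-23551918 (minus strand).
H1f5: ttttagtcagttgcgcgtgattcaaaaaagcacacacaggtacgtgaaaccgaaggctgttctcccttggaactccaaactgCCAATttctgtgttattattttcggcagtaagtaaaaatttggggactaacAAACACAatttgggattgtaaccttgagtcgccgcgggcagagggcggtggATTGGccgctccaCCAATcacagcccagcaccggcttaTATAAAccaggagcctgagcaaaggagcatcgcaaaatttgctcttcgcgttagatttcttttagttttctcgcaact
H2ac4: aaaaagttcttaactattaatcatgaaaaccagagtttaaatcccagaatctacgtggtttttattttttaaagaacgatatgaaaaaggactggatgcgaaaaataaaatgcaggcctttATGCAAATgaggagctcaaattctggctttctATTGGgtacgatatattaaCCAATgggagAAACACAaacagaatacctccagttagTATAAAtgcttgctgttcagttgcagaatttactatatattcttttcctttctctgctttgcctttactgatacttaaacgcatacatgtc
H2bc3: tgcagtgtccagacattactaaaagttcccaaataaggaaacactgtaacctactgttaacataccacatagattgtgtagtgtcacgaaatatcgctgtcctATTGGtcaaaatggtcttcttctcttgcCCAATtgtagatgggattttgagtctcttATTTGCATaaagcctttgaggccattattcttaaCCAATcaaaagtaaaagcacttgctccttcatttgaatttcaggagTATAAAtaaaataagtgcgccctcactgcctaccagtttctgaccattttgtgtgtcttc
H3c15: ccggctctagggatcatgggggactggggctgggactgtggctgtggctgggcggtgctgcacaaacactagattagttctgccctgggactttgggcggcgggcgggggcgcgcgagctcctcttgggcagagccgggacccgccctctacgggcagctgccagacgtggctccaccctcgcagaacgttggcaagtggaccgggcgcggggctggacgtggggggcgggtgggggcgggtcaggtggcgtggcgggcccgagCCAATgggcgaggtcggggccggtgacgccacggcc
H4c6: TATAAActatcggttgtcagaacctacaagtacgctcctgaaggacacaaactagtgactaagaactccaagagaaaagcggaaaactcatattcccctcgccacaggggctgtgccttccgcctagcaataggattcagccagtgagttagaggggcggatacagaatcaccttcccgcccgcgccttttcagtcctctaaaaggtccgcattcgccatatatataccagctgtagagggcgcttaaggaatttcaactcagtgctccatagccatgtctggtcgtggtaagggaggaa

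The H1f5, H2ac4 and H2bc3 windows each held several CCAAT matches and a TATAAA near the start site, and H2ac4 and H2bc3 an octamer match as well. In the H3c15 window the single match was a CCAAT, and in the H4c6 window it was a TATAAA at the far 5′ end. Over the 63 histone promoters in the table, which belong to 62 genes, CCAAT stood in all 6 H1, 18 H2A, 17 H2B and 10 H3 windows but in 3 of 12 H4 windows, against 37.4% of all 32851 promoters. The octamer stood in 7 of 18 H2A and 7 of 17 H2B windows, in none of the H1, H3 or H4 windows, and in 1.74% of all promoters. Since 10 of the 18 H2A windows overlap an H2B window, including 3 of the 7 H2A windows with the octamer, these counts share sequence. The H1 box stood in 5 of 6 H1 windows, 2 H2A windows and 2 H2B windows, and in 7.18% of all promoters. TATAAA stood in 35 of the 63 histone windows and in 13.6% of all. These matches describe letters and were not tied to any difference in level.

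Histone transcripts were higher in both Cxcr5+ groups than in Cxcr5-Bcl6- cells. In Cxcr5+Bcl6+ against Cxcr5-Bcl6- cells, 49 of the 58 probe sets rose, 1 fell and 8 did not pass the threshold of 0.05 on the adjusted p of limma's moderated test. Of all 23410 named probe sets, 17.6% rose and 17.7% fell in that comparison. The histone median change was 0.37 on the log2 scale, against 0.04 for all named probe sets. In Cxcr5+Bcl6- against Cxcr5-Bcl6- cells, 48 of 58 rose, none fell and 10 did not pass, whereas 5.22% of all named probe sets rose and 5.93% fell. Here the histone median was 0.47, against -0.03 for all. Both comparisons share the Cxcr5-Bcl6- arrays. Fewer dividing cells and less histone RNA per cell cannot be told apart in such bulk samples.

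In the comparisons with Cxcr5-Bcl6- cells the arrays rarely overlapped. Both Cxcr5+Bcl6+ arrays lay above both Cxcr5-Bcl6- arrays for 54 of 58 histone probe sets and below them for 1, against 34.4% and 28.1% of all named probe sets. Both Cxcr5+Bcl6- arrays lay above both Cxcr5-Bcl6- arrays for 55 of 58 and below them for 0, against 19.3% and 30.8% of all. Over the 58 probe sets the Cxcr5+Bcl6+ arrays had median levels of 12.04 and 12.04, the Cxcr5+Bcl6- arrays 12.08 and 12.27, and the Cxcr5-Bcl6- arrays 11.33 and 11.48. With single arrays left out, the histone median change was 0.31 to 0.41 for Cxcr5+Bcl6+ against Cxcr5-Bcl6- cells. For Cxcr5+Bcl6- against Cxcr5-Bcl6- cells it was 0.44 to 0.48. When an array of the groups compared was left out, fewer probe sets passed in most runs. That held among histones and among all named probe sets alike. With all rows of the table fitted, 35 and 32 histone probe sets passed in the comparisons of Cxcr5+Bcl6+ and Cxcr5+Bcl6- with Cxcr5-Bcl6- cells. Of all rows, 25.3% and 4.44% passed in that fit. In the main fit 35.3% and 11.1% of the named probe sets passed.

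Some calls given below were also lost under settings other than the omission of an array. With all rows fitted, which leaves the changes themselves as they are, H1f1, H1f3, H2ac1, H2bc1, H2bc4, H2bu1-ps, H3c15, H4c4, H4c6 and the probe set of H4c11 and H4c17 lost their call for Cxcr5+Bcl6+ against Cxcr5-Bcl6- cells. In the same setting H2ac1, H2ac8, H2bc1, H2bu1-ps, H3c4, H4c4, H4c6, H4c14 and H4f16 lost theirs for Cxcr5+Bcl6- against Cxcr5-Bcl6- cells. For Cxcr5+Bcl6+ against Cxcr5-Bcl6- cells, the call was also lost with quantile normalization for H1f3 (0.31) and the H3 probe set with 12 symbols (0.22). It was lost with centring on array medians for H1f1 (0.25), H4c4 (0.27), that H3 probe set (0.23) and the probe set of H4c11 and H4c17 (0.25). A fit to the 4 arrays compared ended it for H1f1, that H3 probe set and the probe set of H4c11 and H4c17. For Cxcr5+Bcl6- against Cxcr5-Bcl6- cells, H2ac1 also lost its call with quantile normalization (0.48) and H3c4 with an intensity trend (0.32).

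Among the probe sets with 1 symbol, 22 lay above the yardstick for dim probe sets, and 20 of these rose in each comparison with Cxcr5-Bcl6- cells. Of the 9 dimmer ones, 3 rose and 1 fell in Cxcr5+Bcl6+ against Cxcr5-Bcl6- cells, and 2 rose in Cxcr5+Bcl6- against Cxcr5-Bcl6- cells. Of the 1225 smell receptor probe sets, 423 rose and 1 fell in the former comparison, and 1 rose and 7 fell in the latter. The 3 dim rises in the former, of H1f3, H2bc21 and H3c15, stand beside that shift of dim probe sets. Summed levels of gene lists chosen as markers of other cells also differed between the groups. Whether these transcripts came from other cells was not tested. Of the markers measured, 8 of 13 for B cells, 6 of 10 for germinal centre B and plasma cells, and 14 of 25 for myeloid and dendritic cells lay above the yardstick. The log2 summed level of the B cell markers was 12.19 and 12.24 in Cxcr5+Bcl6+ arrays, 11.77 and 11.72 in Cxcr5+Bcl6- arrays, and 11.49 and 11.54 in Cxcr5-Bcl6- arrays. That of the germinal centre B and plasma cell markers was 13.19 and 13.14, 13.96 and 13.92, and 14.28 and 14.29, in the same order of groups. The brightest members of that list were Irf4, with group means of 11.51, 12.54 and 13.06, and Xbp1, with 11.56, 12.38 and 12.58. For the myeloid and dendritic cell markers the summed level was 12.34 and 12.36, 12.54 and 12.51, and 13.41 and 13.40. Members of each list went both ways. In Cxcr5+Bcl6+ against Cxcr5-Bcl6- cells 8 B cell markers rose and 3 fell. Of the germinal centre B and plasma cell markers 2 rose and 6 fell, and of the myeloid and dendritic cell markers 3 rose and 11 fell. Of all named probe sets 17.6% rose and 17.7% fell. The part of these lists in the histone differences was not tested.

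**Figure D1:**
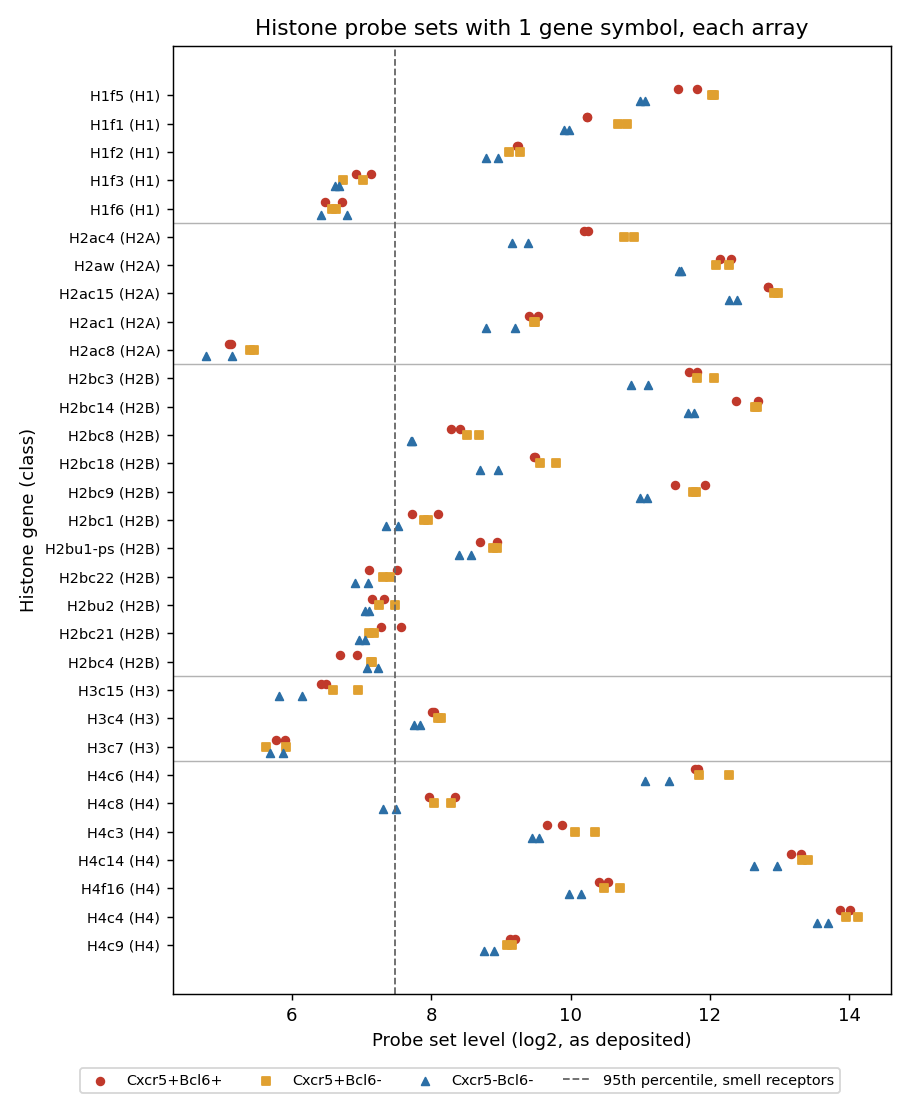
Log2 signal (x axis) of the 31 histone probe sets with 1 gene symbol (rows, grouped by histone class), with 1 point for each of the 6 arrays and colours for the 3 groups. For most genes the Cxcr5+Bcl6+ and Cxcr5+Bcl6- points lie to the right of the Cxcr5-Bcl6- points. The exceptions are H1f6, H3c7 and H2bc4 in both Cxcr5+ groups, and H2ac8 in Cxcr5+Bcl6+ cells. The dashed line is the 95th percentile of smell receptor levels, 7.48.

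Linker histones differed among themselves. H1f5, which encodes the somatic variant H1.5, read 11.82 and 11.55 in Cxcr5+Bcl6+ cells, 12.06 and 12.03 in Cxcr5+Bcl6- cells, and 10.99 and 11.07 in Cxcr5-Bcl6- cells. H1f1, which encodes H1.1, read 10.23 and 10.24 in Cxcr5+Bcl6+ cells, 10.69 and 10.80 in Cxcr5+Bcl6- cells, and 9.90 and 9.98 in Cxcr5-Bcl6- cells. For both genes the 3 groups did not overlap, and Cxcr5+Bcl6- cells were highest. H1f5 rose by 0.65 ± 0.104 (log2, SE) in Cxcr5+Bcl6+ against Cxcr5-Bcl6- cells (1.57-fold, adjusted p = 0.000421) and by 1.02 ± 0.104 in Cxcr5+Bcl6- against Cxcr5-Bcl6- cells (2.02-fold, adjusted p = 7.87e-05). H1f1 rose by 0.80 ± 0.090 in Cxcr5+Bcl6- against Cxcr5-Bcl6- cells (adjusted p = 0.000156) and by 0.29 ± 0.090 in Cxcr5+Bcl6+ against Cxcr5-Bcl6- cells (adjusted p = 0.024). The last of these calls was lost without any 1 array other than Cxcr5-Bcl6- replicate 2, at 0.25 to 0.30.

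H1f2 and H1f3, the somatic variants H1.2 and H1.3, were less separated. H1f2 read 9.23 and 9.25 in Cxcr5+Bcl6+ cells, 9.12 and 9.28 in Cxcr5+Bcl6- cells, and 8.96 and 8.79 in Cxcr5-Bcl6- cells. The Cxcr5+ groups overlapped each other and both lay above the Cxcr5-Bcl6- arrays. H1f2 rose by 0.36 in Cxcr5+Bcl6+ against Cxcr5-Bcl6- cells (adjusted p = 0.0133), a call lost without Cxcr5+Bcl6+ replicate 1 (0.37), Cxcr5+Bcl6+ replicate 2 (0.35) or Cxcr5-Bcl6- replicate 2 (0.27). Its change of 0.32 in Cxcr5+Bcl6- against Cxcr5-Bcl6- cells missed the threshold (adjusted p = 0.0584). H1f3, a dim probe set, rose by 0.38 in Cxcr5+Bcl6+ against Cxcr5-Bcl6- cells (adjusted p = 0.0205), a call lost without Cxcr5+Bcl6+ replicate 2 (0.28) or Cxcr5-Bcl6- replicate 1 (0.35). H1f6, the testis linker histone H1t, read 6.73 and 6.47 in Cxcr5+Bcl6+ cells, 6.57 and 6.63 in Cxcr5+Bcl6- cells, and 6.42 and 6.79 in Cxcr5-Bcl6- cells. All groups overlapped at this dim level, and its change for Cxcr5+Bcl6+ against Cxcr5-Bcl6- cells was -0.01 (95% interval -0.28 to 0.27).

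H2ac4, one of the gene copies for canonical H2A, showed the largest rise of all 58 probe sets in both comparisons with Cxcr5-Bcl6- cells. It read 10.20 and 10.26 in Cxcr5+Bcl6+ cells, 10.76 and 10.92 in Cxcr5+Bcl6- cells, and 9.39 and 9.16 in Cxcr5-Bcl6- cells. The 3 groups were fully apart. The rise was 0.95 ± 0.103 (log2, SE) in Cxcr5+Bcl6+ against Cxcr5-Bcl6- cells (1.94-fold, adjusted p = 2.23e-05) and 1.57 ± 0.103 in Cxcr5+Bcl6- against Cxcr5-Bcl6- cells (2.96-fold, adjusted p = 5.28e-06). Its call held in each alternative run for both comparisons.

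Changes of the other H2A genes were smaller. H2ac15 read 12.84 and 12.83 in Cxcr5+Bcl6+ cells, 12.97 and 12.92 in Cxcr5+Bcl6- cells, and 12.27 and 12.39 in Cxcr5-Bcl6- cells. It rose by 0.50 in Cxcr5+Bcl6+ (adjusted p = 0.000942) and by 0.61 in Cxcr5+Bcl6- cells (adjusted p = 0.00107) against Cxcr5-Bcl6- cells. H2aw, the H2A gene of the Hist3 cluster, read 12.15 and 12.30 in Cxcr5+Bcl6+ cells, 12.09 and 12.28 in Cxcr5+Bcl6- cells, and 11.58 and 11.55 in Cxcr5-Bcl6- cells. Its Cxcr5+ groups overlapped each other, and H2aw was higher than in Cxcr5-Bcl6- cells by 0.66 in Cxcr5+Bcl6+ cells (adjusted p = 0.000271) and by 0.62 in Cxcr5+Bcl6- cells (adjusted p = 0.00196). H2ac8 was the dimmest H2A probe set, at 5.13 and 5.09 in Cxcr5+Bcl6+ cells, 5.40 and 5.46 in Cxcr5+Bcl6- cells, and 5.14 and 4.77 in Cxcr5-Bcl6- cells. Only its Cxcr5+Bcl6- arrays stood apart, with a rise of 0.48 (adjusted p = 0.0217) that lost its call without Cxcr5-Bcl6- replicate 2 (0.29), Cxcr5+Bcl6- replicate 1 (0.50) or Cxcr5+Bcl6- replicate 2 (0.45).

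H2ac1 and H2bc1 encode testis-type H2A and H2B (TH2A and TH2B). H2ac1 read 9.54 and 9.40 in Cxcr5+Bcl6+ cells, 9.50 and 9.48 in Cxcr5+Bcl6- cells, and 8.79 and 9.20 in Cxcr5-Bcl6- cells. H2bc1 read 8.09 and 7.72 in Cxcr5+Bcl6+ cells, 7.90 and 7.96 in Cxcr5+Bcl6- cells, and 7.53 and 7.36 in Cxcr5-Bcl6- cells. Both Cxcr5+ groups lay above Cxcr5-Bcl6- cells without overlap and overlapped each other. H2ac1 rose by 0.47 in Cxcr5+Bcl6+ (adjusted p = 0.0104) and by 0.49 in Cxcr5+Bcl6- cells (adjusted p = 0.0247). H2bc1 rose by 0.46 in Cxcr5+Bcl6+ (adjusted p = 0.0106) and by 0.49 in Cxcr5+Bcl6- cells (adjusted p = 0.0236), each against Cxcr5-Bcl6- cells. Leaving out 1 array ended each of these 4 calls in some cases. For Cxcr5+Bcl6+ cells the H2ac1 call was lost without Cxcr5+Bcl6+ replicate 1 (0.41) or Cxcr5-Bcl6- replicate 1 (0.27), and the H2bc1 call without Cxcr5+Bcl6+ replicate 1 (0.28) or Cxcr5-Bcl6- replicate 2 (0.38). For Cxcr5+Bcl6- cells the H2ac1 call was lost without Cxcr5+Bcl6- replicate 1 (0.48), replicate 2 of that group (0.50) or Cxcr5-Bcl6- replicate 1 (0.29). The H2bc1 call there was lost without Cxcr5+Bcl6- replicate 1 (0.51), replicate 2 of that group (0.46) or Cxcr5-Bcl6- replicate 2 (0.40). Near-identical sequence in other genes of a class could add to a probe set annotated to 1 of them. That holds for H3 and H4 as for H2A and H2B, and these arrays hold no measurement that separates the sources.

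Among the 11 H2B genes with a probe set annotated to them alone, 8 rose and 1 fell in Cxcr5+Bcl6+ against Cxcr5-Bcl6- cells. In Cxcr5+Bcl6- against Cxcr5-Bcl6- cells 7 of them rose. H2bc14 read 12.69 and 12.37 in Cxcr5+Bcl6+ cells, 12.67 and 12.65 in Cxcr5+Bcl6- cells, and 11.68 and 11.77 in Cxcr5-Bcl6- cells. H2bc3 read 11.81 and 11.70 in Cxcr5+Bcl6+ cells, 11.81 and 12.05 in Cxcr5+Bcl6- cells, and 10.87 and 11.11 in Cxcr5-Bcl6- cells. Neither gene separated the Cxcr5+ groups, and both separated them from Cxcr5-Bcl6- cells. H2bc14 rose by 0.80 ± 0.111 (log2, SE) in Cxcr5+Bcl6+ cells (1.75-fold, adjusted p = 0.000143) and by 0.93 ± 0.111 in Cxcr5+Bcl6- cells (1.91-fold, adjusted p = 0.000237). H2bc3 rose by 0.77 ± 0.114 in Cxcr5+Bcl6+ cells (adjusted p = 0.000235) and by 0.94 ± 0.114 in Cxcr5+Bcl6- cells (1.92-fold, adjusted p = 0.000262). H2bc8, H2bc9 and H2bc18 rose likewise, by 0.63, 0.67 and 0.65 in Cxcr5+Bcl6+ cells and by 0.88, 0.73 and 0.85 in Cxcr5+Bcl6- cells, with adjusted p between 0.000131 and 0.00279.

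H2bc4 was the single histone probe set that fell in Cxcr5+Bcl6+ against Cxcr5-Bcl6- cells. It read 6.69 and 6.94 in Cxcr5+Bcl6+ cells, 7.15 and 7.14 in Cxcr5+Bcl6- cells, and 7.25 and 7.08 in Cxcr5-Bcl6- cells, all under the yardstick for dim probe sets. The Cxcr5+Bcl6+ arrays lay below those of both other groups, which overlapped. It fell by 0.34 on the log2 scale (adjusted p = 0.0243), and the call was lost without Cxcr5+Bcl6+ replicate 1 (-0.22) or Cxcr5-Bcl6- replicate 1 (-0.26). The dim probe sets for smell receptors had a median change of 0.22 in that comparison.

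The Hist2 gene H2bc21, which encodes the H2B variant known from mouse olfactory neurons, read 7.29 and 7.57 in Cxcr5+Bcl6+ cells, 7.18 and 7.11 in Cxcr5+Bcl6- cells, and 6.96 and 7.05 in Cxcr5-Bcl6- cells. Its Cxcr5+Bcl6+ arrays were above all others, and its mean level lay under the yardstick for dim probe sets. It rose by 0.42 in Cxcr5+Bcl6+ against Cxcr5-Bcl6- cells (adjusted p = 0.00855), a call lost without Cxcr5+Bcl6+ replicate 2 (0.28), beside a median change of 0.22 for the smell receptors. Its change of 0.14 in Cxcr5+Bcl6- against Cxcr5-Bcl6- cells missed the threshold (adjusted p = 0.547). H2bu1-ps rose by 0.33 in Cxcr5+Bcl6+ cells (adjusted p = 0.0285) and by 0.43 in Cxcr5+Bcl6- cells (adjusted p = 0.0228). The first of these calls was lost without Cxcr5+Bcl6+ replicate 1 (0.21) or Cxcr5-Bcl6- replicate 1 (0.25). The second was lost without Cxcr5+Bcl6- replicate 1 (0.40), replicate 2 of that group (0.45) or Cxcr5-Bcl6- replicate 1 (0.34). H2bc22 and H2bu2 passed in neither comparison, with changes of 0.31 and 0.15 for Cxcr5+Bcl6+ and of 0.36 and 0.28 for Cxcr5+Bcl6- cells.

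Only 3 H3 genes had a probe set annotated to them alone. H3c15, an H3 gene of the Hist2 cluster, read 6.41 and 6.50 in Cxcr5+Bcl6+ cells, 6.59 and 6.96 in Cxcr5+Bcl6- cells, and 5.81 and 6.14 in Cxcr5-Bcl6- cells. The 3 groups did not overlap, at levels under the yardstick for dim probe sets. It rose by 0.79 ± 0.135 in Cxcr5+Bcl6- against Cxcr5-Bcl6- cells (adjusted p = 0.00281). Its rise of 0.48 in Cxcr5+Bcl6+ against Cxcr5-Bcl6- cells (adjusted p = 0.0162) lost its call without Cxcr5+Bcl6+ replicate 1 (0.52), replicate 2 of that group (0.44) or Cxcr5-Bcl6- replicate 1 (0.31). H3c4 read 8.04 and 8.01 in Cxcr5+Bcl6+ cells, 8.14 and 8.10 in Cxcr5+Bcl6- cells, and 7.85 and 7.75 in Cxcr5-Bcl6- cells. Its arrays were in the same order with no overlap. The change of 0.23 in Cxcr5+Bcl6+ cells missed the threshold (adjusted p = 0.0677), and the rise of 0.32 in Cxcr5+Bcl6- cells (adjusted p = 0.0355) lost its call without Cxcr5+Bcl6- replicate 1 (0.30), replicate 2 of that group (0.34) or Cxcr5-Bcl6- replicate 2 (0.28). H3c7 read 5.90 and 5.78 in Cxcr5+Bcl6+ cells, 5.92 and 5.64 in Cxcr5+Bcl6- cells, and 5.87 and 5.69 in Cxcr5-Bcl6- cells. Its groups overlapped, and its change for Cxcr5+Bcl6+ against Cxcr5-Bcl6- cells was 0.06 (95% interval -0.19 to 0.31).

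The H4 genes encode the same core protein from many copies. Of 7 with a probe set annotated to them alone, 6 rose in each comparison with Cxcr5-Bcl6- cells. Other H4 copies of near-identical sequence could add to these levels. H4c8 read 7.97 and 8.34 in Cxcr5+Bcl6+ cells, 8.04 and 8.29 in Cxcr5+Bcl6- cells, and 7.31 and 7.49 in Cxcr5-Bcl6- cells. H4c6 read 11.83 and 11.79 in Cxcr5+Bcl6+ cells, 11.85 and 12.27 in Cxcr5+Bcl6- cells, and 11.07 and 11.42 in Cxcr5-Bcl6- cells. In both genes each Cxcr5+ array was above each Cxcr5-Bcl6- array. H4c8 rose by 0.76 in Cxcr5+Bcl6+ cells (1.69-fold, adjusted p = 0.00079) and by 0.76 in Cxcr5+Bcl6- cells (adjusted p = 0.00306). H4c6 rose by 0.81 ± 0.142 in Cxcr5+Bcl6- cells (1.76-fold, adjusted p = 0.00333, and 0.0506 with all rows fitted) and by 0.56 in Cxcr5+Bcl6+ cells (adjusted p = 0.00874). The H4c6 call for Cxcr5+Bcl6+ cells was lost without Cxcr5+Bcl6+ replicate 1 (0.54), replicate 2 of that group (0.58) or Cxcr5-Bcl6- replicate 1 (0.39).

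H4c3 read 9.87 and 9.66 in Cxcr5+Bcl6+ cells, 10.07 and 10.35 in Cxcr5+Bcl6- cells, and 9.55 and 9.45 in Cxcr5-Bcl6- cells. Its groups were apart, and it rose by 0.71 in Cxcr5+Bcl6- cells (adjusted p = 0.0021), while its change of 0.27 in Cxcr5+Bcl6+ cells missed the threshold (adjusted p = 0.0962). H4c4 read 13.86 and 14.01 in Cxcr5+Bcl6+ cells, 13.95 and 14.12 in Cxcr5+Bcl6- cells, and 13.53 and 13.70 in Cxcr5-Bcl6- cells. Its Cxcr5+ groups overlapped and both lay above the Cxcr5-Bcl6- arrays. The rise of 0.32 in Cxcr5+Bcl6+ cells (adjusted p = 0.0311) lost its call without Cxcr5+Bcl6+ replicate 2 (0.25) or Cxcr5-Bcl6- replicate 1 (0.24). The rise of 0.42 in Cxcr5+Bcl6- cells (adjusted p = 0.023) lost its call without Cxcr5+Bcl6- replicate 2 (0.33) or Cxcr5-Bcl6- replicate 1 (0.34). H4c14 of the Hist2 cluster and H4f16, the Hist4 gene, rose in both comparisons, by 0.44 and 0.41 for Cxcr5+Bcl6+ cells and by 0.56 and 0.52 for Cxcr5+Bcl6- cells. The calls for Cxcr5+Bcl6+ cells were lost without Cxcr5+Bcl6+ replicate 1 (0.36 for H4c14 and 0.35 for H4f16) or Cxcr5-Bcl6- replicate 1 (0.27 and 0.32). Those for Cxcr5+Bcl6- cells were lost without Cxcr5-Bcl6- replicate 1 (0.40 and 0.44), and for H4f16 also without Cxcr5+Bcl6- replicate 2 (0.40). H4c9 rose by 0.34 in Cxcr5+Bcl6+ cells (adjusted p = 0.0139), lost without Cxcr5+Bcl6+ replicate 2 (0.30) or Cxcr5-Bcl6- replicate 1 (0.27), and its change of 0.30 in Cxcr5+Bcl6- cells missed the threshold (adjusted p = 0.0661).

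**Figure D2:**
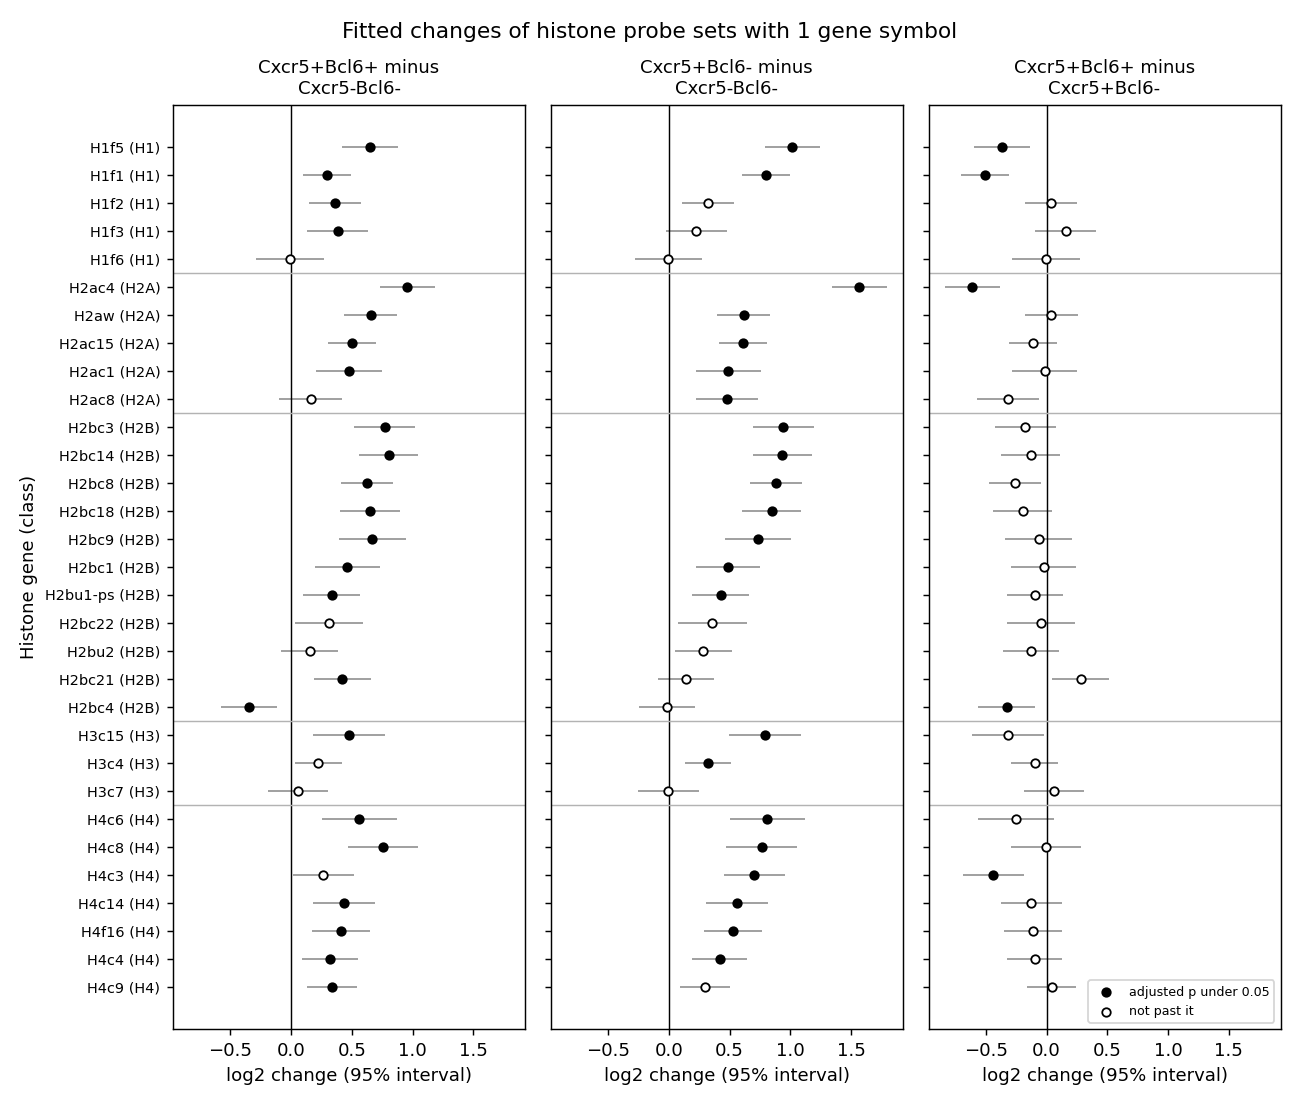
Change (log2, x axis) of each of the 31 histone probe sets with 1 symbol in the 3 comparisons, with 95% intervals from the fit and filled points for an adjusted p under 0.05. Against Cxcr5-Bcl6- cells the points lie mostly right of 0, with H2ac4 farthest at 0.95 and 1.57, and between the Cxcr5+ groups most intervals include 0.

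Most of the 27 probe sets with several symbols draw on sequence that many histone genes share. The others carry 2 symbols: H2bc6 with H1f4, H4c11 with H4c17, and H2aw with Trim17, which is not a histone gene. The 27 covered 9 distinct sets of symbols, and 4 of the 58 probe sets repeated the values of another, so they are not independent measurements. Of the 27, 26 rose in each comparison with Cxcr5-Bcl6- cells. The 7 for H2B had a median change of 0.48 in both comparisons. The 10 for H3 had a median of 0.30 for Cxcr5+Bcl6+ and of 0.45 for Cxcr5+Bcl6- cells. One H2B probe set with 14 symbols read 13.82 and 13.62 in Cxcr5+Bcl6+ cells, 13.69 and 13.76 in Cxcr5+Bcl6- cells, and 13.15 and 13.19 in Cxcr5-Bcl6- cells. It rose by 0.55 in each Cxcr5+ group, with adjusted p of 0.000812 for Cxcr5+Bcl6+ and 0.0031 for Cxcr5+Bcl6- cells, and the Cxcr5+ groups overlapped.

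An H3 probe set with 12 symbols read 14.37 and 14.44 in Cxcr5+Bcl6+ cells, 14.56 and 14.55 in Cxcr5+Bcl6- cells, and 14.13 and 14.12 in Cxcr5-Bcl6- cells. Its 3 groups were apart, with rises of 0.28 in Cxcr5+Bcl6+ cells (adjusted p = 0.0254) and 0.43 in Cxcr5+Bcl6- cells (adjusted p = 0.0075). The call for Cxcr5+Bcl6+ cells was lost without any 1 array other than Cxcr5+Bcl6+ replicate 1, at 0.24 to 0.29, and that for Cxcr5+Bcl6- cells without replicate 1 (0.42) or replicate 2 (0.44) of that group.

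The probe set shared by H2bc6 and H1f4, an H2B and a linker histone gene, read 8.71 and 8.66 in Cxcr5+Bcl6+ cells, 8.94 and 8.88 in Cxcr5+Bcl6- cells, and 8.22 and 8.40 in Cxcr5-Bcl6- cells. It rose by 0.37 in Cxcr5+Bcl6+ cells (adjusted p = 0.00894) and by 0.60 in Cxcr5+Bcl6- cells (adjusted p = 0.00181). The call for Cxcr5+Bcl6+ cells was lost without Cxcr5+Bcl6+ replicate 1 (0.35) or Cxcr5-Bcl6- replicate 1 (0.28). The probe set shared by H4c11 and H4c17 read 7.66 and 7.58 in Cxcr5+Bcl6+ cells, 7.46 and 7.56 in Cxcr5+Bcl6- cells, and 7.24 and 7.41 in Cxcr5-Bcl6- cells. Here Cxcr5+Bcl6+ arrays were highest, but the mean level of 7.484 lay next to the yardstick for dim probe sets, 7.476. Its changes were 0.29 for Cxcr5+Bcl6+ against Cxcr5-Bcl6- cells and 0.11 against Cxcr5+Bcl6- cells. The smell receptors had median changes of 0.22 and 0.30 in these comparisons. The rise of 0.29 of this probe set (adjusted p = 0.031) lost its call without any 1 array other than Cxcr5-Bcl6- replicate 2, at 0.21 to 0.33.

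**Figure D3:**
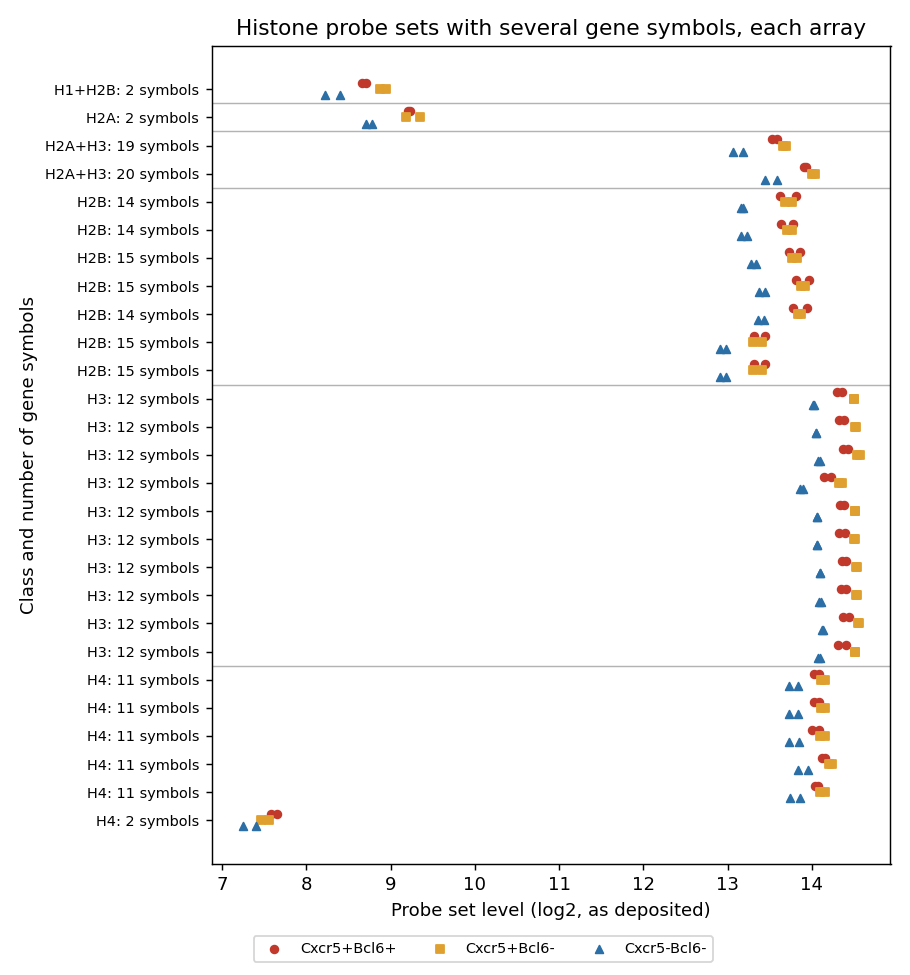
Log2 signal (x axis) of the 27 histone probe sets with several gene symbols (rows, labelled by class and number of symbols), 1 point per array, coloured by group. Nearly all rows show the Cxcr5-Bcl6- arrays at the left, and the H3 rows show the Cxcr5+Bcl6- arrays at the right.

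Between the Cxcr5+ groups 5 of the 58 histone probe sets passed the test. In Cxcr5+Bcl6+ against Cxcr5+Bcl6- cells none of the 58 rose and 5 fell, against 13.4% and 13.0% of all named probe sets. The number of histone probe sets passing was 9 with centring on array medians, 16 with an intensity trend and 2 with all rows fitted. Of all 23410 named probe sets, 3859 fell and 2074 rose with centring, and 3327 fell and 3272 rose with the trend. Of all 35556 rows, 2768 fell and 2797 rose. In the main fit 3041 named probe sets fell and 3144 rose. The histone median change was -0.10, against 0.05 for all. Both Cxcr5+Bcl6+ arrays lay below both Cxcr5+Bcl6- arrays for 31 probe sets and above them for 2, against 26.4% and 39.4% of all. Among probe sets with 1 symbol these numbers were 13 and 1 of 31. With each set of symbols counted once they were 18 and 2 of 40. Group means were highest in Cxcr5+Bcl6- cells and lowest in Cxcr5-Bcl6- cells for 46 of 58 probe sets, an order picked out after the values were seen. For 29 of them all 6 arrays kept that order. The share of all named probe sets in that order was not counted, so neither count is read as particular to histones.

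The 5 that fell were the Hist1 genes H2ac4, H1f1, H4c3, H1f5 and H2bc4, whose values in each array are given above. H2ac4 fell by 0.61 (log2; SE 0.103, adjusted p = 0.00113) and H1f1 fell by 0.51 (SE 0.090, adjusted p = 0.00153). Both calls held in each alternative run. H4c3 fell by 0.44 (adjusted p = 0.0151), a call lost without Cxcr5+Bcl6+ replicate 2 (-0.33) or Cxcr5+Bcl6- replicate 2 (-0.30), with quantile normalization (-0.36) and with all rows fitted. H1f5 fell by 0.37 (adjusted p = 0.0225), lost without Cxcr5+Bcl6+ replicate 2 (-0.23), Cxcr5+Bcl6- replicate 1 (-0.35) or replicate 2 of that group (-0.38), and with all rows fitted. The dim H2bc4 fell by 0.33 (adjusted p = 0.0395), lost without Cxcr5+Bcl6+ replicate 1 (-0.21), Cxcr5+Bcl6- replicate 1 (-0.32) or replicate 2 of that group (-0.33), and with all rows fitted or the replicate number as a block.

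Of the other histone probe sets, H2aw, H4c8 and H2bc14 are examples whose 95% interval held 0. For H2aw the change was 0.04 (95% interval -0.18 to 0.26), for H4c8 it was -0.01 (95% interval -0.30 to 0.28), and for H2bc14 it was -0.13 (95% interval -0.37 to 0.11). For 4 others the interval lay below 0 although the adjusted p missed the threshold. They were H2ac8 (-0.32, interval -0.57 to -0.06, adjusted p = 0.0681), H2bc8 (-0.26, interval -0.47 to -0.05, adjusted p = 0.0713), the probe set of H2bc6 and H1f4 (-0.23, interval -0.43 to -0.02, adjusted p = 0.105) and H3c15 (-0.32, interval -0.61 to -0.02, adjusted p = 0.112). Of the 58, the dim H2bc21 had the largest positive change, 0.28 (95% interval 0.05 to 0.52, adjusted p = 0.0735), beside a median change of 0.30 for the smell receptors. All 10 H3 probe sets with several symbols had both Cxcr5+Bcl6+ arrays below both Cxcr5+Bcl6- arrays, with a median change of -0.15, and none passed. The 7 for H2B had a median of -0.00 and overlapped throughout. With single arrays left out, the median change of the 58 was -0.13 to -0.07.

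Genes that act on histones or with them were read from lists of the same pathway. Their counts stand against the shares over all named probe sets: 17.6% higher and 17.7% lower in Cxcr5+Bcl6+ against Cxcr5-Bcl6- cells, 5.22% and 5.93% in Cxcr5+Bcl6- against Cxcr5-Bcl6- cells, and 13.4% and 13.0% in Cxcr5+Bcl6+ against Cxcr5+Bcl6- cells. Among 12 measured of 16 histone variants made outside S phase or used at special sites, 3 rose in each comparison with Cxcr5-Bcl6- cells. They were H2az2, an H2A.Z gene, at 1.24 for Cxcr5+Bcl6+ and 0.77 for Cxcr5+Bcl6- cells, H2ax, the variant marked at DNA breaks, at 0.67 and 0.76, and Cenpa, the centromeric H3, at 1.12 and 1.17. The list median was 0.07 for Cxcr5+Bcl6+ and 0.09 for Cxcr5+Bcl6- cells, and 1 rose in Cxcr5+Bcl6+ against Cxcr5+Bcl6- cells. That was H2az2, which rose by 0.47 in Cxcr5+Bcl6+ against Cxcr5+Bcl6- cells (adjusted p = 0.00783). H2bu2, described above, stands in this list too.

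Of 20 measured genes for transcription and 3′ end processing of histone mRNA, 4 rose and 4 fell in Cxcr5+Bcl6+ against Cxcr5-Bcl6- cells, shares near those over all named probe sets. In Cxcr5+Bcl6- against Cxcr5-Bcl6- cells 3 rose. E2f2, an E2F factor, rose by 0.75 for Cxcr5+Bcl6+ and 0.68 for Cxcr5+Bcl6- cells, and Ccne1, cyclin E1, by 0.67 and 0.74. Ccne2, cyclin E2, rose by 0.48 in Cxcr5+Bcl6- against Cxcr5-Bcl6- cells (adjusted p = 0.0157) and fell by 0.58 in Cxcr5+Bcl6+ against Cxcr5+Bcl6- cells (adjusted p = 0.00241). Cstf2, a cleavage factor subunit, fell by 0.57 in Cxcr5+Bcl6+ against Cxcr5-Bcl6- cells (adjusted p = 0.000416). The gene of the stem-loop binding protein, Slbp, named after its values were seen, had changes of 0.07 (adjusted p = 0.604) for Cxcr5+Bcl6+ and 0.13 (adjusted p = 0.507) for Cxcr5+Bcl6- cells. In Cxcr5+Bcl6+ against Cxcr5+Bcl6- cells 1 of the 20 rose and 5 fell.

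Histone chaperones carry new histones to DNA. Of 21 measured, 11 fell and 4 rose in Cxcr5+Bcl6+ against Cxcr5-Bcl6- cells, with a median change of -0.30. The falls numbered 7 without Cxcr5+Bcl6+ replicate 1 and 7 without Cxcr5-Bcl6- replicate 1. Ipo4, which imports histones into the nucleus, fell by 1.37 (adjusted p = 6.9e-07), Hirip3 fell by 0.99 (adjusted p = 5.63e-06) and Hat1, which acetylates new H4, fell by 0.83 (adjusted p = 0.000144). Tonsl, which binds new histones at replication forks, rose by 1.05 (adjusted p = 8.92e-06). Asf1b, a chaperone of H3 and H4, rose by 0.61 in Cxcr5+Bcl6+ (adjusted p = 0.000429) and by 1.02 in Cxcr5+Bcl6- cells (adjusted p = 5.2e-05), against Cxcr5-Bcl6- cells. In Cxcr5+Bcl6- against Cxcr5-Bcl6- cells 4 chaperones rose and 1 fell, with a median of -0.05. In Cxcr5+Bcl6+ against Cxcr5+Bcl6- cells 1 rose and 9 fell, and the falls numbered 5 without Cxcr5+Bcl6+ replicate 1 and 5 without Cxcr5+Bcl6- replicate 1.

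The S phase list holds genes of DNA replication. Of its 29 measured genes, 3 rose and 11 fell in Cxcr5+Bcl6+ against Cxcr5-Bcl6- cells (median -0.09), and 16 rose and none fell in Cxcr5+Bcl6- against Cxcr5-Bcl6- cells (median 0.35). The falls numbered 7 without Cxcr5+Bcl6+ replicate 1. The 16 rises became 6 without Cxcr5+Bcl6- replicate 1, 10 without replicate 2 of that group and 9 without Cxcr5-Bcl6- replicate 2, and 8 with all rows of the table fitted. In Cxcr5+Bcl6+ against Cxcr5+Bcl6- cells 22 fell and 1 rose (median -0.51). Mcm2, a subunit of the replicative helicase, fell by 0.86 in Cxcr5+Bcl6+ against Cxcr5-Bcl6- cells (adjusted p = 2.04e-05), and Pcna, the sliding clamp, fell by 0.57 (adjusted p = 0.00033). Mcm6, another helicase subunit, rose by 0.92 (adjusted p = 2.24e-05), and Rrm2, a subunit of ribonucleotide reductase, rose by 0.58 (adjusted p = 0.00378). Tyms, thymidylate synthase, rose by 0.89 in Cxcr5+Bcl6- against Cxcr5-Bcl6- cells (adjusted p = 6.6e-05) and changed by 0.12 in Cxcr5+Bcl6+ against Cxcr5-Bcl6- cells (adjusted p = 0.324).

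All 23 measured genes of G2 and mitosis rose in both Cxcr5+ groups against Cxcr5-Bcl6- cells, with medians of 0.77 for Cxcr5+Bcl6+ and 1.21 for Cxcr5+Bcl6- cells. In Cxcr5+Bcl6+ against Cxcr5+Bcl6- cells 19 of the 23 fell, with a median of -0.48. Ccnb2, cyclin B2, rose by 1.14 in Cxcr5+Bcl6+ cells and by 1.31 in Cxcr5+Bcl6- cells against Cxcr5-Bcl6- cells. The proliferation marker Mki67 rose by 1.12 and 1.37 in the same order, and Hmmr by 0.96 and 1.68. The part of these cell cycle genes in the histone differences was not tested.

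**Figure D4:**
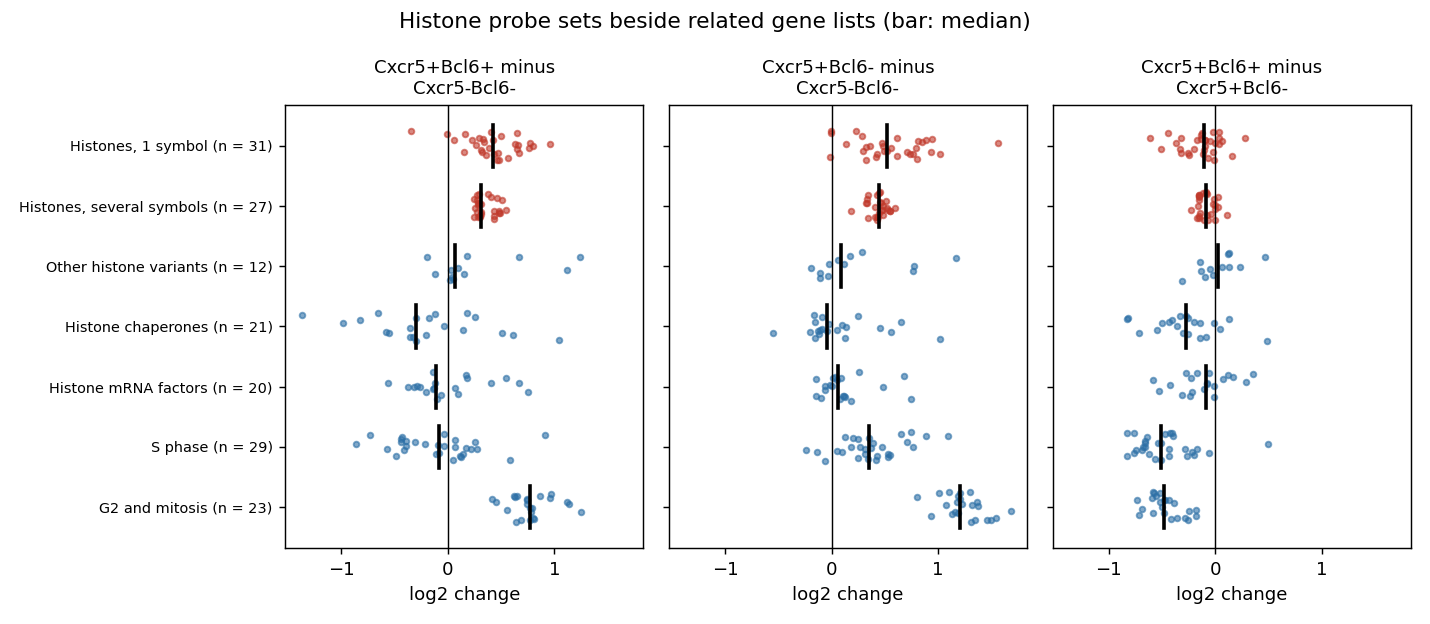
Change (log2) of each measured gene in the lists of histone variants, histone mRNA factors, chaperones, S phase and G2 and mitosis genes, beside the histone probe sets, for the 3 comparisons, with list medians marked. Against Cxcr5-Bcl6- cells the G2 and mitosis medians are 0.77 for Cxcr5+Bcl6+ and 1.21 for Cxcr5+Bcl6- cells. In the same order the histone medians are 0.42 and 0.52 for probe sets with 1 symbol, and 0.31 and 0.45 for those with several. The chaperone median is -0.30 for Cxcr5+Bcl6+ cells.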

How the data were processed

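Levels were measured on 6 arrays, 3 sorted groups of 2 arrays each, so the number of arrays limits the precision. The deposited log2 values were used as the authors gave them. Per the submitters' processing notes the tools were GCOS 1.1, RMA and Affymetrix Expression Console; their order and settings are not stated there, and for the genome build the sources used here name none. Gene symbols came from the platform annotation, updated through Entrez identifiers and RefSeq for 21698 of 21789 probe sets with 1 symbol. Of 35556 rows, 23410 named probe sets were fitted by group means over all 6 arrays in limma 3.58.1 (R 4.3.3), with 3 residual and 8.25 prior degrees of freedom. P-values are from limma's two-sided moderated test with Benjamini-Hochberg adjustment over the 23410, at a threshold of 0.05. They measure the spread between these arrays, which the series calls biological replicates. A yardstick for dim probe sets was the 95th percentile of smell receptor levels. Tables and figures were made with Python 3.11.15 and pandas 2.3.3, and the fit was tested on simulated data.

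Values in every array are given, by rule, for 22 probe sets: in each class, the largest rise and fall past the threshold with groups apart in each comparison, the highest and lowest mean level, and the testis-type genes. Of each gene list, up to 4 genes with the smallest p in each comparison could be named. A few other histone genes have such values because their calls are discussed. Members and gene lists were chosen with earlier results of these data known. Alternatives were quantile normalization, centring on array medians, an intensity trend, a filter at the median level, all rows, probe sets with 1 symbol, a fit to 4 arrays, the replicate number as a block, and leaving out each array, where a lone array is assumed to vary like the others. Counting each set of symbols once was added after seeing the data.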

Additional observations from a re-analysis of the deposited data

How the results depend on the processing

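The median histone change kept its sign in each alternative run, at 0.31 to 0.42 for Cxcr5+Bcl6+ against Cxcr5-Bcl6-, 0.44 to 0.52 for Cxcr5+Bcl6- against Cxcr5-Bcl6- and -0.18 to -0.07 for Cxcr5+Bcl6+ against Cxcr5+Bcl6- cells. Counts of calls moved more. With probe sets of 1 symbol alone they were 24 and 22 of 31 in the comparisons of Cxcr5+Bcl6+ and Cxcr5+Bcl6- with Cxcr5-Bcl6- cells, and with each set of symbols counted once 33 and 30 of 40; fewer probe sets enter both. Leaving out 1 array gave 25 to 45 calls, 24 to 49 calls and, for Cxcr5+Bcl6+ against Cxcr5+Bcl6- cells, 2 to 6 calls. In that last comparison the 5 calls became 9 with centring, 16 with an intensity trend and 2 with all rows, and the cause was not tested. Over 23410 probe sets, deviations of same-numbered Cxcr5+Bcl6+ arrays correlated at -0.23 with those of Cxcr5-Bcl6- and at -0.05 with those of Cxcr5+Bcl6- arrays. Between Cxcr5-Bcl6- and Cxcr5+Bcl6- arrays the correlation was 0.26. With 2 arrays per group these values cannot decide whether the numbers mark pairs, and the main fit does not pair them. With the replicate number as a block 48, 47 and 5 probe sets passed. Of 35 probe sets followed singly, 11 of 28 calls, 15 of 25 and 2 of 5 held in every alternative run, in the same order of comparisons. Sign changes concerned changes that had not passed the threshold. With quantile normalization H3c7 was -0.0075, 0.052 and -0.059 in the 3 comparisons, H2bc4 was 0.0054 and H1f6 0.051 in Cxcr5+Bcl6- against Cxcr5-Bcl6-, and H2ac1 was 0.061 in Cxcr5+Bcl6+ against Cxcr5+Bcl6- cells. With centring H3c7 was 0.024, H2bc4 0.011 and H1f6 0.025 in Cxcr5+Bcl6- against Cxcr5-Bcl6- cells, and H3c7 was -0.014, H2aw -0.035, H1f2 -0.039 and H4c9 -0.034 in Cxcr5+Bcl6+ against Cxcr5+Bcl6- cells. Leaving out 1 array gave, for Cxcr5+Bcl6+ against Cxcr5-Bcl6- cells, -0.029 to 0.15 for H3c7, -0.19 to 0.18 for H1f6 and -0.028 to 0.35 for H2ac8. For Cxcr5+Bcl6- against Cxcr5-Bcl6- cells it gave -0.15 to 0.14 for H3c7, -0.099 to 0.068 for H2bc4 and -0.19 to 0.18 for H1f6. For Cxcr5+Bcl6+ against Cxcr5+Bcl6- cells it gave -0.19 to 0.18 for H4c8, -0.053 to 0.13 for H2aw, -0.21 to 0.027 for H2bu1-ps, -0.29 to 0.034 for H2bc14, -0.10 to 0.092 for the H2B probe set with 14 symbols, -0.25 to 0.16 for H2bc22, -0.13 to 0.12 for H1f6, -0.084 to 0.051 for H2ac1, -0.28 to 0.15 for H2bc9, -0.21 to 0.16 for H2bc1, -0.044 to 0.12 for H1f2, -0.082 to 0.20 for H3c7 and -0.23 to 0.0039 for H4f16. The 9 dim probe sets with 1 symbol lie at or under the 95th percentile of smell receptor levels.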
